A study of Mus musculus with 14 samples.

Results

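Goblet cell genes were followed through RNA sequencing of mouse intestinal tumor organoids in which the histone methyltransferase gene Suv4-20h2 was targeted by inducible short hairpin RNAs. The 10 genes are Muc2, Tff3, Spink4, Clca1, Fcgbp, Agr2, Zg16, Spdef, Guca2a and Creb3l1. They were chosen by name as markers of goblet cells, with earlier results of these data known. Shares of them called are therefore a description. The count files list 55424 genes, and all 10 are among the 17487 genes listed in both sets of libraries. Control 1 (3 libraries) and hairpin 1 (3 libraries, hairpin against exon 4) form set 1. Control 2 (4 libraries) and hairpin 2 (4 libraries, hairpin against exon 9) form set 2. The control libraries are titled shCtrl, a name for a control hairpin, and the word hairpin here means those against Suv4-20h2. All groups, controls included, were APT small-intestinal tumor organoids kept for 4 days with 0.5 µg/ml doxycycline, the drug that switches the hairpins on. The labels do not spell out the alleles that the name APT stands for. They call each control and each hairpin line a clone, so a hairpin effect cannot be told apart from a difference between clones. Whether numbered libraries are separate cultures is not stated, so the p-values rest on a spread among libraries that may be only technical. No control library is shared between the sets, and set cannot be told apart from hairpin.

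Goblet cells are secretory cells of the intestinal lining that make the mucus covering it. They arise from crypt progenitors under the transcription factor Atoh1 and mature under Spdef, and they fill granules with the gel-forming mucin Muc2 together with proteins that cross-link, cut or accompany it. Suv4-20h2 (gene symbol Kmt5c) places higher methylation marks on lysine 20 of histone H4 and is known for its place in compact chromatin. The comparison asks how the goblet programme differs between tumor organoid clones with hairpins against this enzyme and control clones, all kept with doxycycline.

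Promoter windows are shown for 3 genes that took different courses with hairpin 2: Guca2a, with the largest decrease of the 10 genes, Muc2, whose decrease passed the test in the fit with replicate numbers, and Fcgbp, which did not fall. RefSeq's table (GRCm38.p6) held 5 of the 10 genes, namely Muc2, Fcgbp, Agr2, Spdef and Guca2a. Each window runs from 250 to 31 bases before the RefSeq start, 220 bases in all, on the plus strand. The windows lie at chr4:119637482-119637701 (Guca2a), chr7:141690090-141690309 (Muc2) and chr7:28070986-28071205 (Fcgbp). Capitals mark CAGCTG, an E-box of the kind bound by Atoh1, and in Muc2 also TATAAA, letters of a TATA box that in this window lie further from the start than a TATA box does.
Guca2a: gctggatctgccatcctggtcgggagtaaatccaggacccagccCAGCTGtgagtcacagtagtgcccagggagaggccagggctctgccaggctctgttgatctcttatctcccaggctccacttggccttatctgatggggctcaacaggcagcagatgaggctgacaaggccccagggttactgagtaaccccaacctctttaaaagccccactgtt
Muc2: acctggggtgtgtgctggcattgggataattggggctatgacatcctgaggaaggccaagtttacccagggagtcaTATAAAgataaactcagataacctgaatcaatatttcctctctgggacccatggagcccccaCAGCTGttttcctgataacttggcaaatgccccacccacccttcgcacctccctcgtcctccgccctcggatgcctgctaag
Fcgbp: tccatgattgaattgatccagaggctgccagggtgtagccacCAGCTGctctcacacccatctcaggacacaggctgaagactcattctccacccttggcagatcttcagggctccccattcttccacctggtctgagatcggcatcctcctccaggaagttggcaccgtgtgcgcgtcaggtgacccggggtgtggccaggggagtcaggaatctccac
The E-box began 206 bases before the start in Guca2a, 208 in Fcgbp and 112 in Muc2, and TATAAA began 174 bases before the Muc2 start. CAGCTG reads the same on both strands and was found in 3 of the 5 goblet gene windows, against 11.4% of 32851 windows of the same length. Other letters were searched on both strands, and none overlapped another match in these windows. TTTATG, of the kind bound by Cdx2, was found in 2 of 5 (Agr2 and Spdef) against 9.56%, and TATAAA in 1 of 5 against 9.95%. CCGGAT, an ETS core of the kind bound by Spdef, was in 0 of 5 against 4.19%, and CAAAGT, of the kind bound by Hnf4a, in 0 of 5 against 11.3%. A gene with the E-box could thus fall (Guca2a) or not (Fcgbp), and the matches are a description of letters only.

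Depth ran from 9272134 to 26284079 counts per library. Kmt5c was 71.7 ± 4.25 CPM (counts scaled to a common library size; SD, n = 3) in control 1 and 57.9 ± 5.61 (n = 3) in hairpin 1, and 123 ± 6.40 (n = 4) in control 2 and 108 ± 6.40 (n = 4) in hairpin 2. Its groups did not overlap in either set, and neither decrease passed edgeR's test (log2 fold change -0.31, adjusted p = 0.801, and -0.20, adjusted p = 0.0977). With the replicate numbers of set 2 in the fit the second did (-0.20, adjusted p = 0.0074). The library labelled hairpin 1 replicate 1 stood apart: its log2 CPM correlated with the other hairpin 1 libraries at 0.855 and 0.859 (Pearson, across genes), against 0.985 between those. Set 1 results that rest on it are therefore given with and without it. In set 2, replicate 4 differed most from the other numbers in both groups.

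Levels per length show which products dominated. Dividing CPM by the length of all exons in kilobases, control 1 was led by Tff3, a trefoil peptide of mucus, at 1107 ± 335 CPM per kb (SD, n = 3), and by Spink4, a protease inhibitor of goblet granules, at 698 ± 376. Agr2, an endoplasmic reticulum (ER) protein needed for Muc2 folding, followed at 206 ± 48.1, and Guca2a, which encodes the peptide hormone guanylin, at 165 ± 50.1. Next came Zg16, a lectin that binds bacteria, at 32.2 ± 12.1 CPM per kb. Spdef stood at 28.6 ± 8.16, Muc2 at 25.2 ± 5.35 and Creb3l1, an ER-bound transcription factor, at 17.5 ± 4.87. Fcgbp, a mucin-bound protein, was at 7.25 ± 1.04 CPM per kb, and Clca1, a protease that acts on the mucus gel, was lowest at 2.22 ± 1.5. The mean ± SD ranges overlapped between Tff3 and Spink4, between Agr2 and Guca2a, and between neighbours from Zg16 to Creb3l1.

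Control 2 held the same genes at another order. Agr2 led at 76.0 ± 14.5 CPM per kb (SD, n = 4), with Tff3 at 62.5 ± 32.6, and these overlapped. Guca2a (6.51 ± 3.87), Fcgbp (4.21 ± 1.31), Muc2 (4.09 ± 2.27), Creb3l1 (3.87 ± 0.801), Zg16 (2.84 ± 1.77) and Clca1 (1.81 ± 0.215) each overlapped the next in CPM per kb. Spdef (0.934 ± 0.237) and Spink4 (0.485 ± 0.362) were lowest and overlapped. The summed level of the 10 genes was 1111 to 2003 CPM in control 1 and 178 to 335 CPM in control 2. The sets differ in clone and in the genes listed, so this gap was not tested.

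In set 1 the goblet genes were all lowest in a single hairpin library, and most stood above the controls in the other hairpin libraries. Values are CPM in replicates 1, 2 and 3. Muc2 (ENSMUSG00000025515, chr7:141690340-141754693) was 217, 141 and 181 in control 1 and 8.49, 376 and 274 in hairpin 1. Fcgbp (ENSMUSG00000047730, chr7:28071236-28120862) was 74.9, 66.0 and 87.6, against 5.29, 117 and 129.5. Both genes thus had their lowest value of the 6 libraries in hairpin 1 replicate 1 and their highest values in the other hairpin 1 libraries. Zg16 (ENSMUSG00000049350, chr7:127050156-127087328) was 57.5, 28.5 and 35.3, against 1.71, 135 and 196. Tff3 (ENSMUSG00000024029, chr17:31125306-31129646) was 578, 367 and 692, against 24.6, 718 and 736. For Zg16 and Tff3, too, hairpin 1 replicates 2 and 3 lay above every control. Zg16 overlaps a noncoding gene on the opposite strand, Gm44939, which had 1 count over set 1 against 8239 for Zg16. Clca1 (ENSMUSG00000028255, chr3:145003817-145032776) was 6.57, 3.89 and 14.7, against 1.71, 44.6 and 14.4. Spink4 (ENSMUSG00000028415, chr4:40920052-40931395) was 504, 146 and 349, against 8.44, 276 and 191. For Clca1 and Spink4 the groups overlapped even without replicate 1.

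Agr2 (ENSMUSG00000020581, chr12:35992907-36004087) was 327, 203 and 269 CPM in control 1 and 65.7, 441 and 516 in hairpin 1. Creb3l1 (ENSMUSG00000027230, chr2:91982328-92024502) was 59.8, 41.3 and 35.6, against 8.84, 82.9 and 69.0. Guca2a (ENSMUSG00000023247, chr4:119637704-119639471) was 119, 63.8 and 111, against 1.84, 158 and 168. In these 3 genes, too, hairpin 1 replicates 2 and 3 lay above every control. Spdef (ENSMUSG00000024215, chr17:27714352-27728955) was 59.7, 50.9 and 87.0, against 2.76, 67.0 and 48.4, and its groups overlapped with and without replicate 1.

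**Figure D1:**
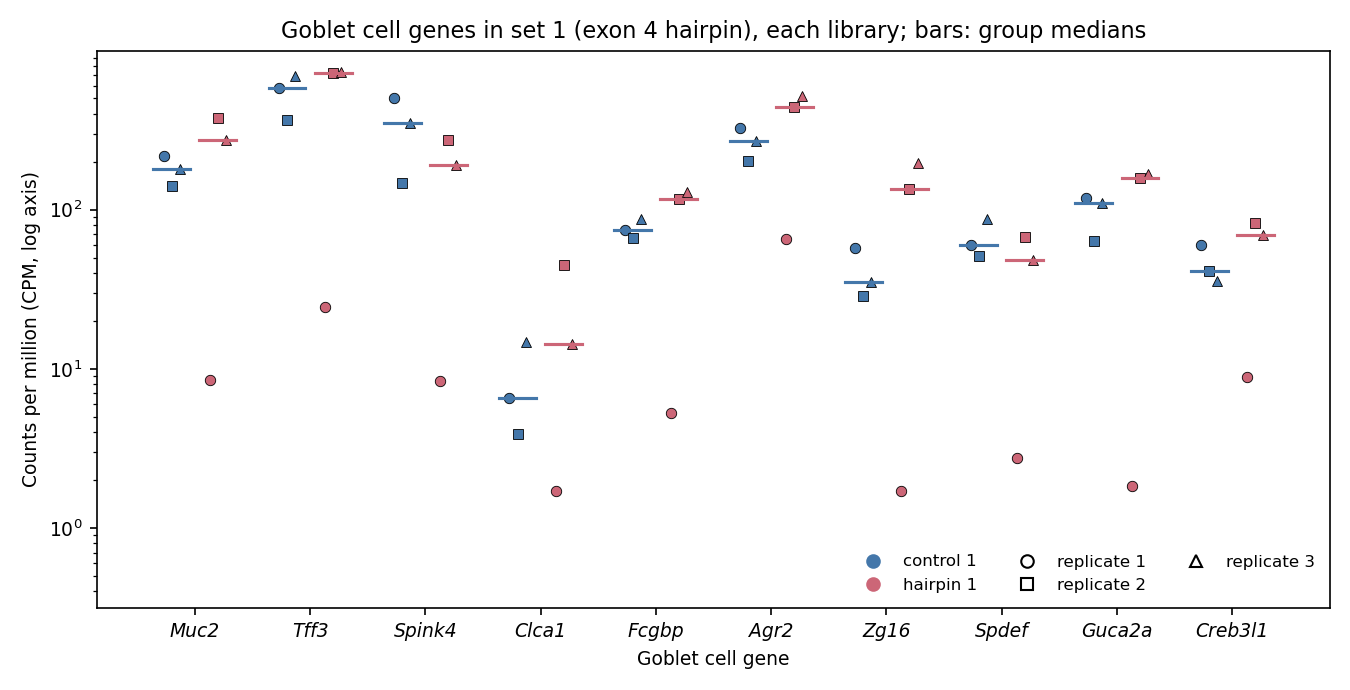
CPM (log axis) of each goblet cell gene in each set 1 library, control 1 in blue and hairpin 1 in red, with symbols for replicate numbers and bars at group medians. Hairpin 1 replicate 1 lies below the other 5 libraries for all 10 genes.

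Hairpin 1 replicate 1 was the lowest of the 6 libraries for all 10 genes, as it was for 33.7% of the genes tested. It lay over 4-fold below the next lowest library for 8 of the 10, as for 4.93% of genes. That gap was 34.7-fold for Guca2a, 17.6-fold for Spdef, 17.3-fold for Spink4, 16.7-fold for Zg16, 16.6-fold for Muc2, 14.9-fold for Tff3 and 12.5-fold for Fcgbp. It was smaller for Creb3l1 (4.02-fold), Agr2 (3.08-fold) and Clca1 (2.28-fold). In bulk samples, fewer goblet cells and less RNA per goblet cell cannot be told apart.

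No goblet gene passed the test between hairpin 1 and control 1 over all 6 libraries, and the groups of all 10 overlapped, while 6.48% of genes were higher and 6.37% lower with no overlap. None of the 10 was called by edgeR's quasi-likelihood test at a Benjamini-Hochberg adjusted p under 0.05, as for 0.0% of 13540 genes, and none had an unadjusted p under 0.05, against 733 of those genes. DESeq2 (0.162% of genes) and voom with library weights (0.0591%) also called 0 of the 10. Log2 fold changes ran from -1.07 for Spink4 (SE 1.01, adjusted p = 0.845) to 1.46 for Zg16 (SE 1.18, adjusted p = 0.825). Clca1 stood at 1.27 (SE 1.01, adjusted p = 0.823), Muc2 at 0.29 (SE 0.993, adjusted p = 0.959) and Guca2a at 0.16 (SE 1.13, adjusted p = 0.978). Their median was 0.20, beside 0.03 over all genes tested.

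Without replicate 1 most of the 10 genes stood higher in hairpin 1 than in every control, and still none passed the test. Muc2, Tff3, Fcgbp, Agr2, Zg16, Guca2a and Creb3l1 did not overlap their controls (7 of 10), as was so for 17.6% of 13883 genes in that direction. By edgeR 0 of the 10 were called, beside 0.0072% of genes in either direction, and 7 had an unadjusted p under 0.05, as had 2187 of the 13883 genes. Zg16 had the largest difference (165.9 ± 43.2 CPM, n = 2, against 40.4 ± 15.2, n = 3, log2 fold change 2.03, SE 0.287, adjusted p = 0.0616). Clca1 followed at 1.81 (SE 0.546, adjusted p = 0.173). Muc2 stood at 0.85 (SE 0.227, adjusted p = 0.139), Agr2 at 0.84 (SE 0.224, adjusted p = 0.139), and Creb3l1, Guca2a and Fcgbp at 0.74, 0.74 and 0.69. Spdef (-0.19, SE 0.253) and Spink4 (-0.52, SE 0.412) were on the other side of 0. The median of the 10 was 0.74, beside -0.02 over all genes.

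Sharing the spread with set 2, in a model of 13 libraries less hairpin 1 replicate 1 (a choice made after seeing the data), 4 of the 10 rose: Zg16 (2.08, SE 0.362, adjusted p = 0.0039), Agr2 (0.89, adjusted p = 0.0127), Clca1 (1.84, adjusted p = 0.0170) and Creb3l1 (0.77, adjusted p = 0.0298). In that model 6.55% of 15313 genes rose and 12.5% were called in either direction. The same model over all 14 libraries called 0 of the 10, beside 1.24% of genes.

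In set 2 the goblet genes were mostly lower with hairpin 2, with Guca2a far below its controls. Values are CPM in replicates 1 to 4. Guca2a was 2.68, 3.0, 2.48 and 7.30 in control 2 and 0.356, 0.316, 0.324 and 0.415 in hairpin 2. Its hairpin 2 counts were 8, 8, 3 and 5, against 59, 60, 65 and 182 in control 2, so the hairpin 2 level rests on few counts. No hairpin 2 library came near a control, and the log2 fold change was -3.45 (SE 0.460, adjusted p = 0.0019). Creb3l1 was 8.13, 9.57, 9.58 and 13.0, against 4.99, 5.88, 4.76 and 4.98. Its groups did not overlap, and it fell by 0.96 on the log2 scale (SE 0.158, adjusted p = 0.0062). Clca1 was 6.22, 6.61, 6.45 and 8.02, against 4.05, 4.57, 4.87 and 5.39. It was lower in every hairpin 2 library (log2 fold change -0.55, SE 0.137, adjusted p = 0.0451). Spink4 was not tested, since 2, 4, 4 and 12 counts in control 2 and 2, 2, 3 and 2 in hairpin 2 did not pass the filter on low counts.

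These 3 of the 9 genes tested passed edgeR's test, all of them lower, where 4.01% of 14126 genes were called lower and 6.05% in either direction. Without overlap between the groups, the same 3 were lower, as were 8.43% of genes. The median log2 fold change of the 9 was -0.55, beside 0.00499 over all genes. Leaving out any of 7 of the 8 libraries ended the call of Clca1 (adjusted p from 0.0774 to 0.132), and only leaving out hairpin 2 replicate 4 kept it (0.0189), while Guca2a and Creb3l1 kept theirs in all 8 fits. In the model of all 14 libraries none of the 3 was called (Guca2a adjusted p = 0.411), beside 0.798% of genes. Less hairpin 1 replicate 1, that model called Guca2a (adjusted p = 7.0e-04) and Creb3l1 (adjusted p = 0.0113), with 2.16% of genes lower.

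The other goblet genes overlapped between the groups and did not pass the test. Muc2 was 18.7, 22.3, 22.2 and 53.2 CPM in control 2 and 6.24, 16.3, 13.9 and 29.9 in hairpin 2 (log2 fold change -0.84, SE 0.451, adjusted p = 0.344). Tff3 was 21.1, 25.0, 22.4 and 54.8, against 17.4, 18.9, 20.0 and 43.6. In both genes replicate 4 was the highest library of its group and the groups overlapped through it. Zg16 was 2.54, 2.50, 2.33 and 6.90, against 2.27, 1.97, 1.95 and 3.07. Agr2 was 82.7, 101, 85.1 and 123, against 66.7, 78.9, 69.2 and 85.8. Agr2, Zg16 and Spdef also overlapped only through replicate 4. Spdef was 1.86, 1.80, 1.98 and 2.97, against 1.60, 1.38, 0.649 and 3.40. Fcgbp was 34.4, 40.3, 37.5 and 64.4, against 37.3, 49.4, 42.3 and 70.8, and was the single gene of the 9 with a log2 fold change above 0 (log2 fold change 0.17, SE 0.232, adjusted p = 0.751).

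**Figure D2:**
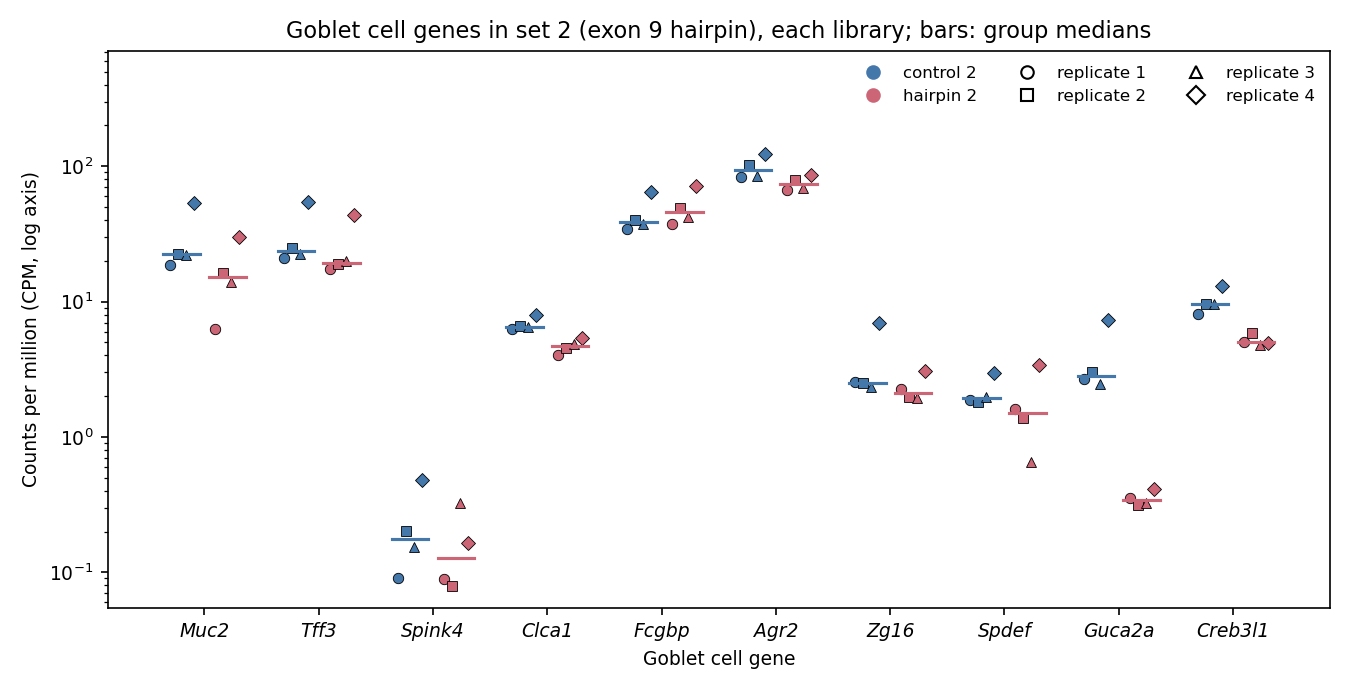
CPM (log axis) of each goblet cell gene in each set 2 library, control 2 in blue and hairpin 2 in red, with symbols for replicate numbers and bars at group medians. Guca2a, Creb3l1 and Clca1 do not overlap between groups, and replicate 4 (diamonds) is high in most genes of both groups.

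Comparing set 2 libraries within replicate numbers brought more goblet genes past the test. Replicate 4 was the number that stood apart: its control and hairpin libraries correlated at 0.575 in their deviations from group means, while among replicates 1 to 3 libraries of different numbers (0.0926 to 0.206) correlated about as well as those of the same number (0.140 to 0.225). Hairpin 2 was below its same-numbered control in all 4 pairs for Muc2, Tff3, Clca1, Agr2, Zg16, Guca2a and Creb3l1 (7 of 10, beside 20.1% of genes), and Fcgbp was above it in all 4 (as were 20.5% of genes). With replicate numbers as blocks in edgeR, 7 of the 9 tested were called, 6 lower and 1 higher, beside 10.1% of 14126 genes lower, 10.2% higher and 20.4% in all. Guca2a stood at -3.34 (SE 0.254, adjusted p = 3.2e-06), Creb3l1 at -0.92 (adjusted p = 4.6e-04) and Muc2 at -0.85 (SE 0.132, adjusted p = 9.4e-04). Clca1 (-0.54, adjusted p = 0.0062), Agr2 (-0.38, adjusted p = 3.3e-04) and Tff3 (-0.30, adjusted p = 0.0061) fell too. Fcgbp rose slightly (0.18, SE 0.0528, adjusted p = 0.0307). Zg16 (-0.53, adjusted p = 0.0767) and Spdef (-0.31, adjusted p = 0.402) were not called. Without both replicate 4 libraries and with no block, the same 6 genes fell, beside 9.02% of genes lower and 16.9% in either direction, and Fcgbp was not called (0.21, adjusted p = 0.115). Without those libraries, 8 of the 10 (not Fcgbp or Spink4) were lower with no overlap, as were 17.0% of genes. Replicate 4 was the highest library of both groups for 8 of the 10 (not Creb3l1 or Spink4), as for 24.1% of genes.

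**Figure D3:**
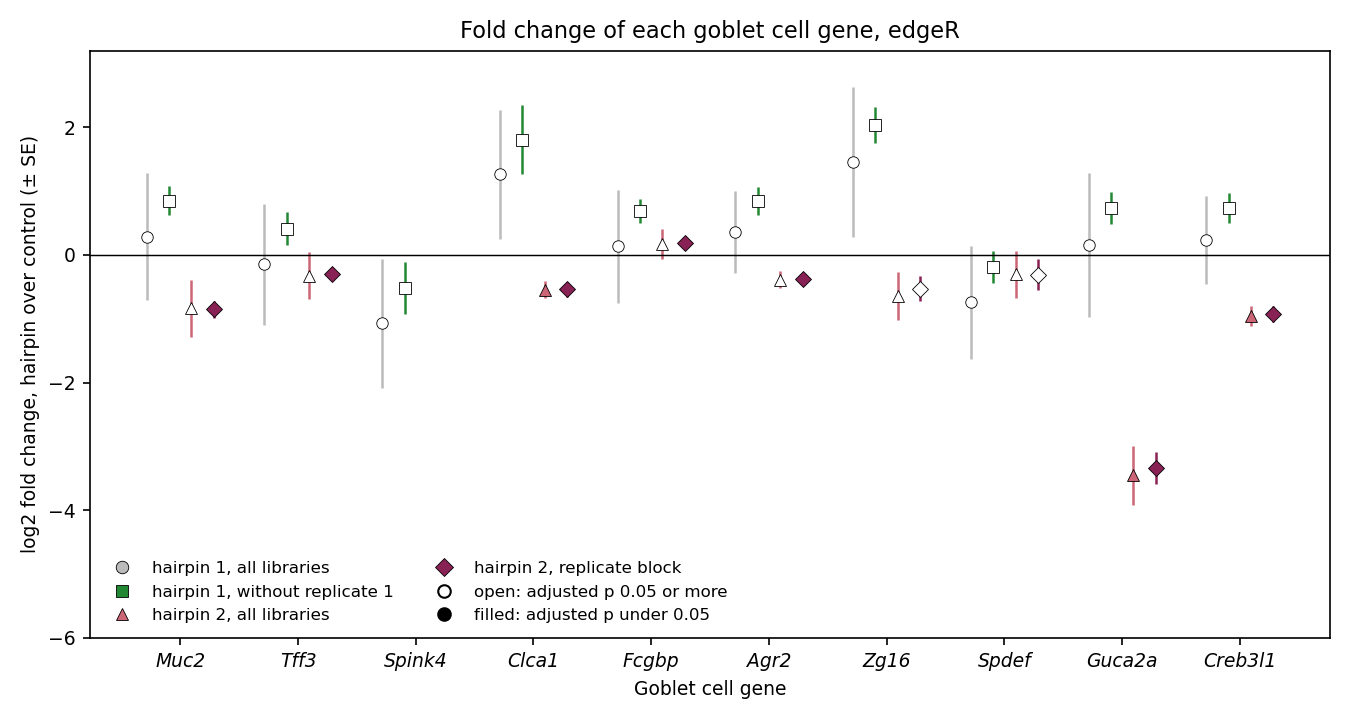
Log2 fold change of hairpin over control for each goblet cell gene (edgeR), with bars of ± 1 SE: hairpin 1 with all libraries (grey) and without replicate 1 (green), hairpin 2 with all libraries (red) and with the replicate block (purple). Filled symbols have an adjusted p under 0.05; Spink4 was not tested in set 2, and Guca2a with hairpin 2 lies furthest from 0.

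The hairpins' effects were then set against each other directly, as the fold change of hairpin 2 less that of hairpin 1 in a model of all 14 libraries. With all libraries, 0 of the 10 differed by edgeR, beside 0.412% of 15043 genes, and 1 (Guca2a, -3.62, SE 1.46, adjusted p = 0.342) had an unadjusted p under 0.05, as had 1808 of those genes. DESeq2 called 0, beside 2.63% of genes, and voom with library weights 3 (Guca2a, Creb3l1 and Clca1), all below 0, as were 4.15% of genes (8.02% in either direction). Without hairpin 1 replicate 1, 5 of the 10 differed, all with the hairpin 2 effect below that of hairpin 1, as did 3.98% of 15313 genes, with 6.26% in either direction. These were Guca2a (-4.23, SE 0.586, adjusted p = 0.0011), Creb3l1 (-1.73, SE 0.284, adjusted p = 0.0031), Zg16 (-2.73, SE 0.526, adjusted p = 0.0084), Agr2 (-1.27, SE 0.253, adjusted p = 0.0101) and Clca1 (-2.39, SE 0.576, adjusted p = 0.0252). Muc2 (-1.73, SE 0.608, adjusted p = 0.107) did not pass. The count thus went from 0 to 5 on leaving out 1 library. With the replicate block of set 2 added, 5 again differed (2.95% of genes below 0, 4.52% in all): Muc2 passed (-1.76, adjusted p = 0.0072) and Clca1 did not (-2.38, adjusted p = 0.0550), and without both replicate 4 libraries of set 2 the same exchange was seen, with 5 called (3.29% of genes below 0, 5.72% in all; Muc2 adjusted p = 0.0297, Clca1 adjusted p = 0.0551).

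Genes that work with the goblet products were read from the same fits, in which 6.05% of all genes were called with hairpin 2. With hairpin 1, 0.0% of all genes were called over all 6 libraries and 0.0072% without replicate 1. A lack of calls with hairpin 1 therefore says little about any list. Of 12 regulators of secretory cells tested with hairpin 2, 1 was called, a share near that of all genes. It was Foxa2, a forkhead factor of endoderm, which rose (138 ± 6.10 to 178 ± 4.17 CPM, n = 4 each, log2 fold change 0.36, adjusted p = 0.0027). Atoh1 was at 4.41 ± 0.647 and 4.66 ± 0.368 CPM there (adjusted p = 0.817). In set 1 without replicate 1, Atoh1 was at 24.4 ± 4.24 CPM in control 1 (n = 3) and 55.1 ± 4.75 in hairpin 1 (n = 2), a log2 fold change of 1.17 that was not called (adjusted p = 0.0703). Hes1, a Notch target, stood at 1.07 (adjusted p = 0.0658), and 0 of the 14 regulators were called. With all 6 libraries these fold changes were 0.62 for Atoh1 (adjusted p = 0.903) and 0.91 for Hes1 (adjusted p = 0.801). The difference between hairpins without that library was called for both, at -1.13 for Atoh1 (adjusted p = 0.0106) and -0.96 for Hes1 (adjusted p = 0.0014), 2 of the 14 beside 6.26% of genes. With all libraries it was called for neither (adjusted p = 0.847 for Atoh1 and 0.113 for Hes1).

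Guanylin acts on the receptor Gucy2c, which leads to opening of the chloride channel Cftr, and both fell with hairpin 2 alongside Guca2a. Gucy2c went from 29.8 ± 6.42 to 6.69 ± 1.96 CPM (n = 4 each, log2 fold change -2.18, SE 0.208, adjusted p = 2.3e-04). Cftr went from 4.97 ± 1.68 to 1.06 ± 0.520 CPM (-2.28, SE 0.329, adjusted p = 0.0030), and Clca4a, a relative of Clca1, from 3.66 ± 2.94 to 0.317 ± 0.174 (-3.75, SE 0.655, adjusted p = 0.0083). These 3 were the called ones of 7 tested in the list of ion and guanylin genes, beside 4.01% of all genes called lower. The list's median was -0.40 beside 0.00499 over all genes. In hairpin 2, 3 counts in a library came to 0.118 to 0.324 CPM, so the Clca4a level there rests on few counts. With hairpin 1 less replicate 1, 0 of 10 were called, beside 0.0072% of all genes. There Slc26a3, a chloride-bicarbonate exchanger, was at 1.79 (adjusted p = 0.132) and Clca4a at 1.91 (adjusted p = 0.166). With all 6 libraries Slc26a3 was at 1.22 (adjusted p = 0.846), and Clca4a did not pass the filter.

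Mucins of the cell surface fell with hairpin 2 in 2 of the 4 tested, while enzymes that build mucin sugars moved in both directions. Over all genes 4.01% were called lower there and 6.05% in either direction. The median of the 4 mucins was -1.10. Muc13 went from 145 ± 86.6 to 45.6 ± 17.5 CPM (log2 fold change -1.68, adjusted p = 0.0260). Muc3 went from 11.6 ± 7.40 to 0.539 ± 0.313 CPM (-4.39, adjusted p = 9.1e-04). Muc3 has near-identical relatives, and its value is uncertain for that reason. Its hairpin 2 level also rests on few counts. Of 19 genes of mucin O-glycosylation, 4 fell and 1 rose: the branching enzymes Gcnt1 (-1.71, adjusted p = 0.0061) and Gcnt3 (-1.22, adjusted p = 0.0242), the chain-starting enzymes Galnt12 (-0.51, adjusted p = 0.0056) and Galnt4 (-0.41, adjusted p = 0.0063), and the sialyltransferase St3gal1 (0.22, adjusted p = 0.0412), which is named here after its value was seen. The list's median was -0.07. With hairpin 1 less replicate 1 none of these lists held a call, beside 0.0072% of all genes. The smallest p-values there were in C1galt1c1, a chaperone of the core sugar enzyme (1.01, adjusted p = 0.0923), St3gal1 (-1.63, adjusted p = 0.230), Muc4 (-1.60, adjusted p = 0.166) and Muc20 (-1.95, adjusted p = 0.233). With all 6 libraries C1galt1c1 was at 0.72, Muc4 at -0.55 and Muc20 at -1.68, and St3gal1 was on the other side of 0 at 0.41 (log2 fold changes, none called).

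Genes for ER folding gave no more calls with hairpin 2 than genes in general (6.05%). Among 24 ER genes 1 was called, the disulfide isomerase Pdia5 (50.6 ± 3.26 to 37.7 ± 1.89 CPM, -0.42, adjusted p = 0.0055). Of 13 granule genes, 2 fell: Rab27a, a small GTPase of secretory granules (1.29 ± 0.224 to 0.276 ± 0.128 CPM, -2.14, adjusted p = 0.0025), and Sytl2, its effector (14.3 ± 1.80 to 5.65 ± 2.24 CPM, -1.39, adjusted p = 0.0064). The Rab27a level in hairpin 2 rests on few counts. Among 8 tested of the other secreted or goblet-enriched products, 1 rose, Lrrc26 (11.5 ± 1.40 to 15.4 ± 1.2 CPM, 0.42, adjusted p = 0.0493). With hairpin 1 less replicate 1, 0 of 24, 0 of 14 and 0 of 11 were called in these lists, beside 0.0072% of all genes. The smallest p-values there belonged to Pdia5 (0.82, adjusted p = 0.0969), to Rep15, a Rab15 effector (1.77, adjusted p = 0.0703), and to Retnlb, a secreted goblet protein (1.49, adjusted p = 0.171). With all 6 libraries their log2 fold changes were 0.34, 1.22 and 0.93, none called.

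With the replicate block of set 2, more genes of these lists were called, as over all genes (10.2% higher and 10.1% lower). The regulators then had 5 higher and 1 lower of 12, the other secreted products 1 and 2 of 8, the membrane mucins 0 and 3 of 4, and the O-glycosylation genes 3 and 6 of 19. The ER genes had 4 higher and 6 lower of 24, the granule genes 0 and 3 of 13, and the ion and guanylin genes 0 and 5 of 7. With hairpin 1 and all 6 libraries, no list held a call, where 0.0% of all genes were called.

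**Figure D4:**
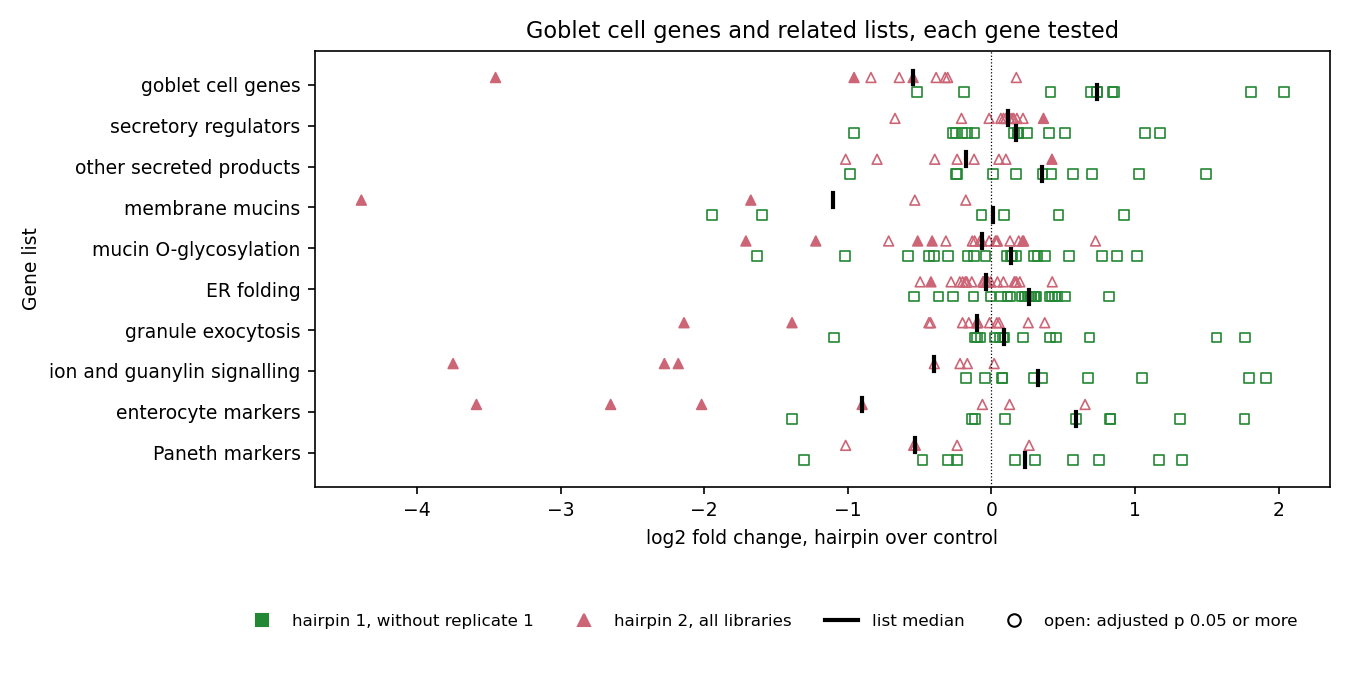
Log2 fold change of each gene tested in the goblet cell genes and 9 related lists, hairpin 1 without replicate 1 (green squares) and hairpin 2 with all libraries (red triangles), with black bars at list medians; filled triangles have an adjusted p under 0.05. The goblet medians lie at 0.74 for hairpin 1 and at -0.55 for hairpin 2.

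Markers of other cell types were read in the same libraries, and their part in the goblet result was not tested. Sums are CPM over a marker list, and fold changes are log2. With hairpin 2, 4.01% of all 14126 genes tested were called lower and 6.05% in either direction. Of single genes, 8.43% were lower there with no overlap between the groups, and no such share was computed for sums. Enterocyte markers fell with hairpin 2 in 4 of the 7 tested, with Krt20 at -2.65 (42.5 ± 3.77 to 6.85 ± 1.21 CPM, adjusted p = 3.9e-06), Fabp2 at -3.59, Slc5a1 at -2.02 and Mgam at -0.90. Fabp2 stood at 0.289 ± 0.186 CPM in hairpin 2, a level that rests on few counts. The summed level of the enterocyte markers was 443 to 476 CPM in control 2 and 321 to 385 in hairpin 2, with no overlap. In set 1 it was 546 to 661 CPM in control 1 and 462 to 726 in hairpin 1, lowest in replicate 1. The defining genes Apoa4 and Fabp1 were at 0 in every set 1 library, and Apoa4 and Fabp1 are not listed in set 2.

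Epithelial markers in general were also lower with hairpin 2, with all 7 below 0 and 3 called, beside 4.01% of all genes called lower. These were the keratins Krt8 (-0.89, adjusted p = 0.0016) and Krt18 (-0.41, adjusted p = 0.0026) and the adhesion protein Cdh1 (-0.28, adjusted p = 0.0079). Their sum was 5704 to 5841 CPM in control 2 and 4523 to 5118 in hairpin 2, with no overlap, and 5077 to 6911 in control 1 and 5577 to 6841 in hairpin 1. Of 4 stem cell markers tested in set 2, Smoc2 fell (338 ± 16.0 to 281 ± 10.3 CPM, -0.27, adjusted p = 0.0192), and the stem cell receptor Lgr5 was at -0.28 (adjusted p = 0.192). The stem sum (1746 to 2048 CPM in control 2 and 1731 to 2089 in hairpin 2) was mostly the Wnt target Axin2 (1489 ± 120 and 1575 ± 146 CPM), which was not called. In set 1 the stem sum was 499 to 596 CPM in control 1 and 208 in hairpin 1 replicate 1, beside 871 and 563 in the other hairpin 1 libraries, so it was lowest where the goblet genes were lowest.

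Paneth markers summed to 3769, 1575 and 3853 CPM in control 1 and 1284, 3319.7 and 2902 in hairpin 1, so hairpin 1 replicate 1 was lowest there too. In set 2 the Paneth sum (299.6 to 484 CPM in control 2 and 319 to 603 in hairpin 2) was mostly Nupr1, which stood at 0.26 (adjusted p = 0.543), while the other 4 tested were below 0. Of those, the antimicrobial Ang4 was at -1.02 (adjusted p = 0.267) and the protease Mmp7 at -0.54 (adjusted p = 0.158), and 0 of 5 were called. Mptx2 was at 0 in every set 2 library. Enteroendocrine markers summed to 15.1, 7.43 and 16.1 CPM in control 1 and 2.71, 22.5 and 12.7 in hairpin 1, again lowest in replicate 1. In set 2 they summed to 8.36 to 16.7 CPM in control 2 and 6.89 to 9.80 in hairpin 2, and Sct, the hormone secretin and the single one tested, was at -0.53 (adjusted p = 0.201).

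Tuft markers in set 2 were in effect 1 gene, Avil, at 242 ± 22.6 CPM in control 2 and 302 ± 83.9 in hairpin 2 (adjusted p = 0.303), while the tuft marker Dclk1 had at most 3 counts in every set 2 library. In set 1 they summed to 3.89 to 6.84 CPM in control 1 and to 19.7 in hairpin 1 replicate 1, beside 3.70 and 2.70 in the other hairpin 1 libraries, and Il25 was at 0 in every set 1 library. Non-epithelial markers ran from 93.3 to 262 CPM in control 1, from 74.9 to 147 in hairpin 1, from 27.9 to 33.1 in control 2 and from 31.7 to 33.8 in hairpin 2. Of 4 of them tested in set 2, Pdgfra, a growth factor receptor of mesenchyme, rose (9.94 ± 1.00 to 14.5 ± 0.755 CPM, 0.55, adjusted p = 0.0094).

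No marker list held a call with hairpin 1, with or without replicate 1. Over all genes, 0.0% of 13540 were called with all 6 libraries and 0.0072% of 13883 without replicate 1. Without it the smallest p-values belonged to Slc5a1 (0.83, against 0.26 with all libraries) and Sis (1.76, against 1.19) among enterocyte markers, Lyz1 (1.33, against 0.74) and Mptx2 (1.17, against 0.59) among Paneth markers, and Chga (3.11, against 2.52) and Sct (0.24, against -0.28) among enteroendocrine markers. They further belonged to Lgr5 (0.64, against 0.28) and Smoc2 (0.63, against 0.09) among stem markers, Cdh1 (0.36, against 0.46) and Krt18 (-0.40, against -0.39) among epithelial markers, Cd68 (-1.92, against -0.10) and Vim (-0.51, against -0.85) among non-epithelial markers, and Siglecf (1.67, not tested with all libraries) and Avil (-1.69, against 0.99) among tuft markers. Sct and Avil thus changed sign with that library.

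With the replicate block of set 2, 10.2% of all genes were called higher and 10.1% lower, 20.4% in all. The epithelial markers then had 5 lower of 7 and the stem markers 2 lower of 4 (Smoc2 and Lgr5). Paneth markers had 1 higher (Nupr1) and 2 lower (Ang4 and Mmp7) of 5. Ang4 is also in the list of other secreted products, so its call is counted in both lists. Non-epithelial markers had 1 higher (Pdgfra) and 1 lower (Cd68) of 4, Avil was called higher, and the enterocyte markers again had 4 lower of 7.

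The share of counts from mitochondrial genes was 0.806%, 0.447% and 0.967% in control 1 and 0.590%, 2.37% and 2.02% in hairpin 1. In set 2 it was 1.30% to 1.70% in control 2 and 0.902% to 1.63% in hairpin 2. The hairpin 1 libraries with high goblet genes were thus those with a high mitochondrial share, and the part of that share in the result was not tested.

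Genes with the most similar course were found by the root-mean-square difference of centred log2 CPM. In set 1, the closest to the mean course of the 10 goblet genes among 10453 genes over 6 libraries were Cds1 (0.119), Gjb1 (0.153), Hepacam2 (0.176), Epb41l3 (0.183), Vdr (0.195) and Ugt2b35 (0.198). Hepacam2 ran from 3.28 CPM at its lowest to 97.6 at its highest. Muc2 itself stood 0.231 from that mean, Fcgbp 0.20 and Clca1 0.900. Without hairpin 1 replicate 1, over 5 libraries and 10377 genes, Cds1 (0.0779) was the single one of those 6 still among the 6 closest, and the others were Tusc3 (0.0616), Dcp1b (0.0849), Mep1a (0.110), Gm36945 (0.122) and Smim8 (0.125). Guca2a then stood 0.113 from the mean of the 10, Muc2 0.134 and Clca1 0.803. In set 2, among 10449 genes over 8 libraries, Cmbl (0.117), Neu1 (0.122), Rflnb (0.127), Slc9a2 (0.142), Maoa (0.153) and Car2 (0.154) were closest to the mean of the 9 goblet genes tested, from which Guca2a stood 1.23 away. Closest to Guca2a itself were Lypd8 (0.174), Ms4a8a (0.334), AA467197 (0.354) and Nlrp6 (0.367). Lypd8 ran from 3.25 to 58.2 CPM. These distances describe the libraries and carry no test.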

How the data were processed

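RNA of the tumor organoids was poly(A)-selected and made into strand-specific libraries (14 in all), per the labels' protocols. The deposited values are whole-number gene counts, with no scaling by the authors visible in them. The submitters' processing notes name bcl2fastq 2.20, FastQC, STAR, featureCounts, DESeq2 and the build GRCm38. Their settings, the use of strand in counting among them, were not stated. Set 1 lists 55421 genes and set 2 lists 17490. GENCODE M21 named 55240 and 17471 of them and gave coordinates and exon lengths.

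CPM were computed from each count and its library's total times the TMM factor. Each set was tested alone with edgeR 4.0.16 (R 4.3.3; quasi-likelihood test, TMM, filterByExpr, Benjamini-Hochberg adjustment over all genes tested, threshold 0.05). This test was also run on simulated data in which no library stood apart, so that run does not speak for set 1 with hairpin 1 replicate 1. The difference between hairpins was tested over 14 libraries on genes listed in both sets. The alternatives tried were size factors from DESeq2, no filter on low counts, DESeq2 1.42.0, voom with library quality weights (limma 3.58.1), the replicate block, the model of all libraries, and leaving out each library or both replicate 4 libraries of set 2. 5 alternatives were added after seeing the data: the model of all libraries less hairpin 1 replicate 1 (for each hairpin), the difference between hairpins less that library together with the block or without replicate 4 of set 2, and the likeness in set 1 less that library. Libraries with the same number correlated in set 2 (deviations from group means, 0.225, 0.140, 0.216 and 0.575, all over 0.1), so the numbers were taken to pair them, and blocked values are printed where calls change. This rests on the data, not on the labels, and among replicates 1 to 3 other numbers correlated about as well (0.0926 to 0.206). In set 1 the correlations were 0.212, -0.0278 and 0.256, and the numbers were not taken to pair. No pair of libraries within a group agreed within sampling noise (lowest chi-square per gene 21.8 in set 1 and 2.84 in set 2).

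The goblet genes and the 14 other lists were chosen with earlier results of these data known. Some lists share genes. Ang4 and Itln1 are in both the Paneth list and that of other secreted products, and Neurog3 is in both the enteroendocrine list and that of secretory regulators. All 10 goblet genes are named. From each other list, the genes past the threshold in a set are named, up to 4 with the smallest p, or else up to 2 with the smallest p. In set 1, where no list held a call, the p came from the fit without hairpin 1 replicate 1. For likeness, the 6 genes nearest to the goblet mean, and the 4 nearest to Guca2a in set 2, were taken among genes averaging 5 CPM or more (prior count 0.5 for log2). Figures used Python 3.11.15, pandas 2.3.3 and matplotlib 3.10.9.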

Additional observations from a re-analysis of the deposited data

Results flagged for a closer look

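In set 2, 6 of the 20 groups of goblet gene values held a library far from the others, and in each it was replicate 4 at the top. Chance gives about 5% for separate groups, but these groups share the same libraries and are not separate. How often the rule flags genes in general was not computed. Muc2 stood at 53.2 CPM in control 2 replicate 4, with the others at 18.7 to 22.3. Tff3 stood at 54.8 CPM in control 2 replicate 4 (others 21.1 to 25.0) and at 43.6 in hairpin 2 replicate 4 (others 17.4 to 20.0). In control 2 replicate 4, Zg16 was at 6.90 CPM (others 2.33 to 2.54), Spdef at 2.97 (others 1.80 to 1.98) and Guca2a at 7.30 (others 2.48 to 3.0). Replicate 4 was the highest library in both groups for 24.1% of all genes tested.

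Without hairpin 1 replicate 1, the fold change of hairpin 2 less that of hairpin 1 passed edgeR's test of the difference for 5 goblet genes. All 5 were below 0, as were 3.98% of 15313 genes, with 6.26% called in either direction. For each gene named next, the value is that fold change difference. It was -4.23 for Guca2a (adjusted p = 0.0011), -2.73 for Zg16 (0.0084), -2.39 for Clca1 (0.0252), -1.73 for Creb3l1 (0.0031) and -1.27 for Agr2 (0.0101) on the log2 scale. With all libraries none of the 5 passed, beside 0.412% of 15043 genes, so calls over all genes also rose on leaving out that library.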

How the results depend on the processing

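Counts of calls depended on the tool and on the libraries, and the cause was not tested. For hairpin 1, genes called went from 0 to 22 (DESeq2), 8 (voom), 187 (model of all 14 libraries) and 1913 (that model less hairpin 1 replicate 1, with 4 goblet genes), and ran from 0 to 1 on leaving out each library. For hairpin 2, 854 genes became 1346 (DESeq2), 2466 (voom), 120 (model of all 14 libraries) and 363 (less hairpin 1 replicate 1). They became 2396 without both replicate 4 libraries and 453 to 1409 on leaving out each library. The 3 goblet genes became 5 (voom), 0 (model of all 14 libraries), 6 (without both replicate 4 libraries) and 2 to 3. For the difference between hairpins, 62 genes became 395 (DESeq2), 1207 (voom, with 3 goblet genes), 865 (less hairpin 1 replicate 1 and both replicate 4 libraries of set 2, with 5) and 27 to 959 on leaving out each library (0 to 5 goblet genes).

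With the replicate block, hairpin 2 had 2880 genes and 7 goblet genes called. Hairpin 1 kept 0 of both, with log2 fold changes below 0 for Creb3l1 (-0.11), Fcgbp (-0.54), Guca2a (-0.55) and Muc2 (-0.41), in a set whose numbers were not taken to pair. The difference had 65 genes and 0 goblet genes, with Tff3 at 0.50. Less hairpin 1 replicate 1 and with the block in set 2 it had 692 and 5, with Fcgbp at -0.55, Spdef at -0.18 and Spink4 at -0.091.

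Directions turned in other fits for genes that edgeR did not call in the fit of all libraries without a block. Some of these were called elsewhere. Hairpin 2 Tff3 and Fcgbp were called with the replicate block, and Tff3 also without both replicate 4 libraries. Hairpin 1 Agr2, Clca1 and Creb3l1 were called in the model of all libraries less hairpin 1 replicate 1. Hairpin 1 Tff3 was 0.24 with voom and 0.45 in the model of all libraries less hairpin 1 replicate 1. The difference for Fcgbp was -0.51 (less that library and both replicate 4 libraries of set 2), -0.012 (no filter on low counts) and -0.34 (voom), and that for Spdef was -0.33 and, with voom, -0.26. On leaving out each library, hairpin 1 ran from -0.047 to 0.84 for Agr2, -0.059 to 1.96 for Clca1, -0.22 to 0.74 for Creb3l1, -0.30 to 0.69 for Fcgbp, -0.27 to 0.74 for Guca2a, -0.34 to 0.85 for Muc2 and -0.53 to 0.41 for Tff3. Hairpin 2 ran from -0.037 to 0.41 for Fcgbp and -0.73 to 0.11 for Tff3. The difference ran from -0.56 to 0.48 for Fcgbp, -0.16 to 1.01 for Spdef, -0.33 to 0.94 for Spink4 and -0.77 to 0.26 for Tff3.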
